A study of Mus musculus with 18 samples.

Results

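The genes described here are 26 enzymes and regulators of cholesterol and fatty acid synthesis, chosen by name: 21 of the sterol pathway and 5 of fatty acid synthesis. They were followed in mouse AB1 embryonic stem (ES) cells, either wild type or CYP26A1-/-, a knockout of the enzyme that oxidises and clears retinoic acid (RA). Of the 26, 25 had a probe set naming that gene alone, and all 25 passed the filter on dim genes, among 18194 genes measured and 11388 tested. Acat2, which condenses acetyl-CoA at the start of the pathway, had none and has no value below. The 25 genes were read by 57 probe sets, and each is given by the probe set with the highest mean signal.

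Cells of both genotypes were kept with LIF, the cytokine that holds mouse ES cells undifferentiated, and were either left without RA for 8 h (control, 3 arrays per genotype), given 100 nM RA for 8 h (3 arrays per genotype), or given 100 nM RA for 72 h (2 arrays per genotype). A single further control array per genotype was labelled as 8 h without LIF. No 72 h control was used here, so the 72 h cells are compared with 8 h controls and time in culture cannot be told apart from RA. The labels describe the knockout as CYP26A1-/- AB1 cells and give neither the number of clones nor whether repeats were separate cultures, so p-values measure the spread between these arrays, which may be technical. The arrays were bulk RNA, in which fewer cells of a type and less RNA per cell cannot be told apart.

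Cholesterol is built from acetyl-CoA through mevalonate, isoprenoid phosphates and squalene, which is closed into lanosterol and trimmed to cholesterol. When sterol in the endoplasmic reticulum is low, the factor encoded by Srebf2 is carried to the Golgi by its escort protein, cut by the proteases encoded by Mbtps1 and Mbtps2, and switches on nearly every gene of the pathway; Insig1 holds it back when sterol is plentiful. Its relative encoded by Srebf1 drives fatty acid synthesis, in which Acly makes cytosolic acetyl-CoA, Acaca makes malonyl-CoA, Fasn builds palmitate and Elovl6 lengthens it.

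The promoters of 4 members that differed between genotypes or with RA are printed first, as the 250 bases before the RefSeq start (GRCm38.p6), 5′ to 3′ on the gene's strand. Capitals mark 3 motifs, searched on both strands: CCAAT, read as ATTGG where it lies on the other strand, the box bound by NF-Y, a partner of sterol response factors; CACGTG, the E-box; and TCACNCCAC, a form of the sterol response element.
Hmgcs1: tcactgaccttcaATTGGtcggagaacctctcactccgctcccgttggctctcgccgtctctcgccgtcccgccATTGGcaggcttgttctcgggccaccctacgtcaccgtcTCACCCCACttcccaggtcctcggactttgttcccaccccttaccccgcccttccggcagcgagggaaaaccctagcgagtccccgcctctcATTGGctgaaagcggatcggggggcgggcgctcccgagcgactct
Nsdhl: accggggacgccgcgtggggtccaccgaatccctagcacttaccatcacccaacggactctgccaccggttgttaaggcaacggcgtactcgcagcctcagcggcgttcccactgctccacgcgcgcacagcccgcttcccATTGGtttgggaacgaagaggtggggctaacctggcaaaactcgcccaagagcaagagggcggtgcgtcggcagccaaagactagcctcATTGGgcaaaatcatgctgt
Hsd17b7: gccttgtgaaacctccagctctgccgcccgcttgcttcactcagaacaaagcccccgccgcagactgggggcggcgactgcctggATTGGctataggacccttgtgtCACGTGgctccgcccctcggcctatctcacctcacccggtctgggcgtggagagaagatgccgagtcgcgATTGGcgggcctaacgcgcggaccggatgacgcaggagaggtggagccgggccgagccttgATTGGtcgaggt
Elovl6: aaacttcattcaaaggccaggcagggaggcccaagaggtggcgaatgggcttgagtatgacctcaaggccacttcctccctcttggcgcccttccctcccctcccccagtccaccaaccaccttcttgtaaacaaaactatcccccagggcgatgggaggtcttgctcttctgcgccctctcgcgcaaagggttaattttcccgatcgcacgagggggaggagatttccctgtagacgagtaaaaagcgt
These windows lie just upstream of the start, at chr13:119690101-119690350 (plus strand), chrX:72918271-72918520 (plus), chr1:169969206-169969455 (minus) and chr3:129532136-129532385 (plus). Hmgcs1 carried 3 CCAAT boxes and 1 TCACNCCAC element 137 bases upstream of the start. Nsdhl carried 2 CCAAT boxes. Hsd17b7 carried 3 CCAAT boxes and 1 CACGTG, 143 bases upstream, while Elovl6 carried none of the 3 motifs in this window.

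RefSeq promoters were at hand for 22 of the 26 members. A CCAAT box stood in 18 of the 22 (81.8%), against 37.5% of 27025 genes with windows of the same length, and Mvk had 5. CACGTG stood in 4 members (Dhcr7, Sc5d, Insig1 and Hsd17b7; 18.2%, against 6.86% of genes). The shorter CACNCCAC, which lies within TCACNCCAC, stood in Hmgcs1, Insig1 and Acat2 (13.6%, against 6.05%), and the longer form in Hmgcs1 alone (1.22% of genes). TCACCTGA stood in 0 members (1.2% of genes), and ATTGGCCN, which overlaps CCAAT, in 6 (27.3%, against 4.38%). These are matches of letters, not measured binding.

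Signals are in the arrays' own units after each array was scaled to a trimmed mean of 500, with values under 50 set to 50 for tests. Differences are on the log2 scale ± SE, and a gene was called at a limma p-value, Benjamini-Hochberg adjusted over all 11388 genes, under 0.05. Cyp26a1 itself was at 10 to 84 in the 6 controls, reached 637 to 1695 in wild type and 193 to 216 in the knockout after 8 h of RA, and 3211 to 3402 and 2873 to 3075 after 72 h. Whether its probe set lies inside the deleted part is not given in the sources used here, so it checks no label. The LIF-induced gene Socs3 went against the LIF labels in the controls of replicate 1: it read 367 (wild type) and 215 (knockout) on the arrays labelled with LIF, 3800 and 4551 on those labelled without, and 2628 to 6001 on the other 14. Counts of called members that rest on those arrays were therefore also taken with the LIF labels exchanged and without both arrays. Not every difference of a single member is given so. Genes outside the members were not checked in this way. Of the 8 ES cell markers all were tested, and their summed signal was 97406 to 114862 in wild-type and 116181 to 130268 in knockout controls. Of 17 extraembryonic endoderm markers 13 were tested, with Afp and Apoa1 at the floor on all arrays, and 2 of 8 fibroblast feeder markers were tested, with Postn at the floor. Wild-type 72 h replicate 2 stood apart in the fibroblast genes Col1a1, Col1a2, Col3a1 and Dcn, at 302, 432, 253 and 210. The other 17 arrays read at most 76.8, 98.0, 56.6 and 42.9. Thy1 and Fn1 of the same list went the other way, at 78.5 and 5042 against 99.8 and 5739 in wild-type 72 h replicate 1. Lum and Postn were near or under the floor of 50 on this array, at 51.9 and 38.6.

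**Figure D1:**
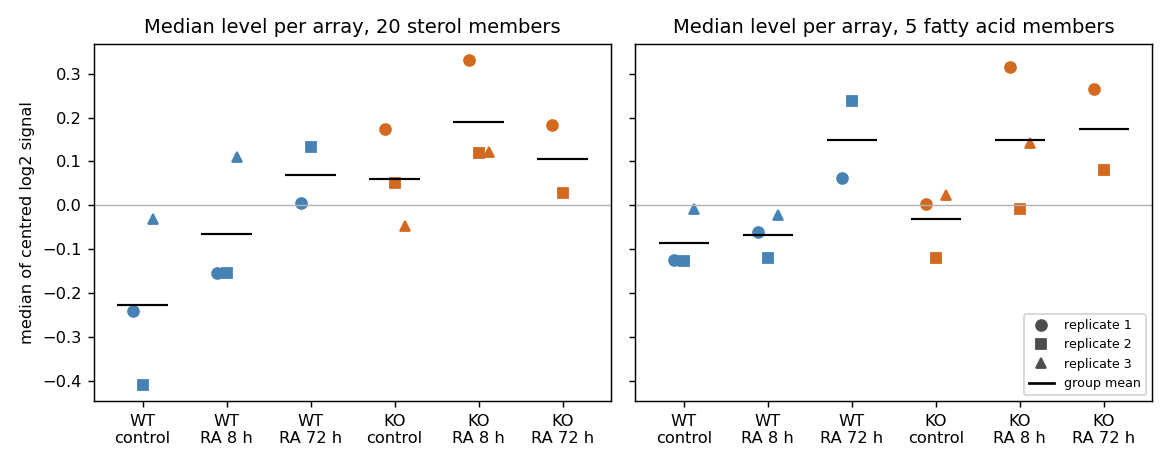
Median log2 level, centred per gene, of the 20 sterol members (and of the 5 fatty acid members) on each array, by group; each point is 1 array and the line is the group mean. In wild-type controls the sterol median lies at -0.41 to -0.03, in knockout controls at -0.05 to 0.17, and after 8 h of RA at -0.15 to 0.11 in wild type and 0.12 to 0.33 in the knockout.

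Without RA, most sterol members read higher in the knockout than in wild type, but only 1 passed the test. The median difference, knockout minus wild type, over the 20 sterol members was 0.30, with 16 above 0, while the median over all genes was -0.00. The sterol median was 0.31 with the LIF labels exchanged and 0.22 without both replicate 1 controls. Hmgcs1, which makes HMG-CoA for the mevalonate pathway, was the member called, 1 of 25, where 4.64% of all genes were called in either direction (1.83% higher in the knockout and 2.81% lower). In 8 of the 25 members every knockout control was above every wild-type control, an arrangement found in 9.29% of genes. The 5 fatty acid members had a median of 0.11 (-0.01 without wild-type control 2) and none was called, and 0 had an unadjusted p under 0.05. Of all 11388 genes, 811 had such a p with the knockout higher and 1036 with it lower.

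Hmgcs1 read 9126, 7513 and 9680 in the wild-type controls and 15223, 12832 and 10827 in the knockout controls. Every knockout array was above every wild-type array. The difference was 0.56 ± 0.13, or 1.47-fold (limma adjusted p = 0.0209), and 4 of its probe sets with signal on all 16 arrays gave 0.35 to 0.60. The call was kept with the LIF labels exchanged but lost without both replicate 1 controls (0.47, adjusted p = 0.151). It was also lost without knockout control 1 (adjusted p = 0.0896), wild-type control 2 (0.0881) or knockout control 2 (0.0697), with the mean over probe sets (0.175), with eBayes without trend (0.0508) and in the fit of these groups alone (0.101).

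Among the other early enzymes, Mvk, which phosphorylates mevalonate, read 401, 346 and 433 in wild type and 562, 465 and 527 in the knockout, without overlap (0.40 ± 0.16, adjusted p = 0.202). Idi1, which isomerises the isoprenoid unit, read 3462, 3283 and 3522 against 4782, 3997 and 3682, again without overlap (0.27 ± 0.13, adjusted p = 0.341). Neither passed the test. Mvd, which decarboxylates mevalonate, read 1186, 959 and 1554 against 1149, 923 and 937, a difference of -0.28 ± 0.21 (adjusted p = 0.604). Mvd lies on chromosome 8, where the median over 638 genes was -0.25 in this comparison.

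Of the later steps, Sqle, the squalene epoxidase, read 3533, 2481 and 2938 in wild type and 4625, 3421 and 3382 in the knockout, with overlap (0.35 ± 0.18, adjusted p = 0.35). Cyp51, which demethylates lanosterol, read 1133, 1051 and 1570 against 2055, 1741 and 1490, with overlap (0.50 ± 0.21, adjusted p = 0.227). Nsdhl, a C4 demethylation enzyme, read 1361, 1210 and 1478 against 1792, 1696 and 1541, without overlap (0.31 ± 0.11, adjusted p = 0.158). None of these 3 was called. Tm7sf2, a sterol reductase, had the widest difference of the members (0.58 ± 0.24, adjusted p = 0.228), and it lies on chromosome 19, where the median over 414 genes was 0.47. Leaving out the 3 sterol members on chromosomes 8 and 19 (Msmo1, Mvd and Tm7sf2), the sterol median over the other 17 was 0.31.

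None of the 3 regulators was called. Insig1 read 612, 470 and 540 in wild-type controls and 875, 755 and 682 in knockout controls, without overlap (0.51 ± 0.16, 1.43-fold, adjusted p = 0.097), and it passed with the LIF labels exchanged (0.55, adjusted p = 0.0444). Srebf2 read 1005, 693 and 1028 against 1279, 1087 and 1105, without overlap (0.37 ± 0.20, adjusted p = 0.404). Srebf1, the fatty acid regulator, read 819, 763 and 933 against 794, 812 and 896, with a difference of -0.00 ± 0.14.

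The sterol genes shared their high and low arrays within groups. Among wild-type controls, replicate 2 was lowest for 15 of the 20 sterol members and replicate 3 highest for 16. Among knockout controls, replicate 1 was highest for 15 and replicate 3 lowest for 13. The 16 members above 0 are thus not 16 separate observations. Markers of ES cells and of another cell type moved with this comparison too. Of the 8 ES cell markers 7 lay above 0 (median 0.21, 1 called higher). All 13 tested extraembryonic endoderm markers lay below 0 in the knockout (median -1.04, 4 called lower), with sums of 5977 to 13494 in wild type and 4355 to 7477 in the knockout. The part of these markers in the sterol difference was not tested.

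**Figure D2:**
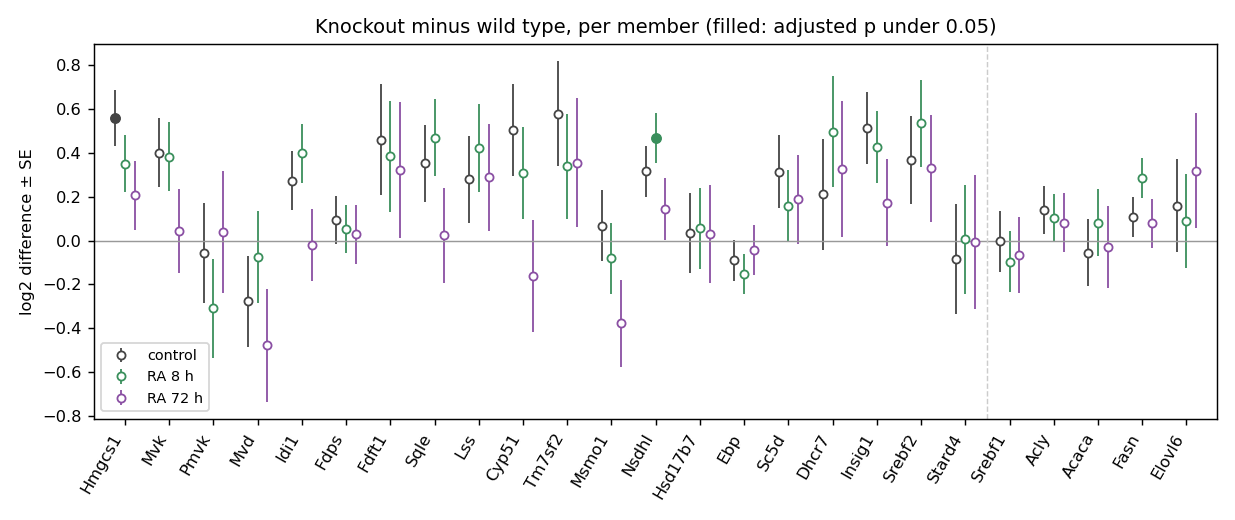
Log2 difference, knockout minus wild type, of each of the 25 members, by condition: control, RA for 8 h and RA for 72 h (bars ± SE; filled points have an adjusted p under 0.05). Hmgcs1 in controls (0.56) and Nsdhl at 8 h (0.47) are the only filled points; most sterol members lie above 0 in the first 2 conditions and closer to 0 at 72 h.

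After 8 h of RA the sterol genes again read higher in the knockout, with a median of 0.34 over the 20 members, 16 of them above 0 (0.38 over the 17 off chromosomes 8 and 19, and 0.19 over the 20 without wild-type replicate 2). Nsdhl was the only member of 25 called, against 4.61% of all genes in either direction. It read 1290, 1405 and 1539 in wild type and 1994, 1986 and 1864 in the knockout, with every knockout array above every wild-type array. The difference was 0.47 ± 0.11, 1.38-fold (limma adjusted p = 0.0306). The call was lost without any one of wild-type replicate 1 (adjusted p = 0.118) or 2 (0.0788), or knockout replicate 1 (0.0931), 2 (0.0811) or 3 (0.0659), and in the fit of these groups alone (0.0953).

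At 8 h of RA, Hmgcs1 read 9186, 10009 and 11811 in wild type and 13391, 13663 and 12308 in the knockout, without overlap, but it did not pass (0.35 ± 0.13, adjusted p = 0.154). Sqle read 2878, 2249 and 3609 against 4680, 3612 and 3665, also without overlap (0.47 ± 0.18, adjusted p = 0.17). Srebf2 read 1012, 880 and 1129 against 2001, 1119 and 1363, with overlap and with knockout replicate 1 far above the rest (0.53 ± 0.20, adjusted p = 0.165). In all, 6 members were apart with the knockout higher (8.65% of genes) and 2, Ebp and Pmvk, with the knockout lower (11.7% of genes). Fasn, the fatty acid synthase, read 5127, 5119 and 5691 against 6932, 6360 and 6139 (0.29 ± 0.09, adjusted p = 0.0957). The summed ES cell markers were 108186 to 108761 in wild type and 128904 to 132862 in the knockout, with 0 of 8 called and 3 at an unadjusted p under 0.05. Of all 11388 genes, 806 had such a p with the knockout higher and 1116 with it lower. Of the 13 extraembryonic endoderm markers 12 lay below 0 (median -0.87, 3 called lower), with sums of 7729 to 13184 in wild type and 6159 to 7195 in the knockout. The part of either was not tested.

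**Figure D3:**
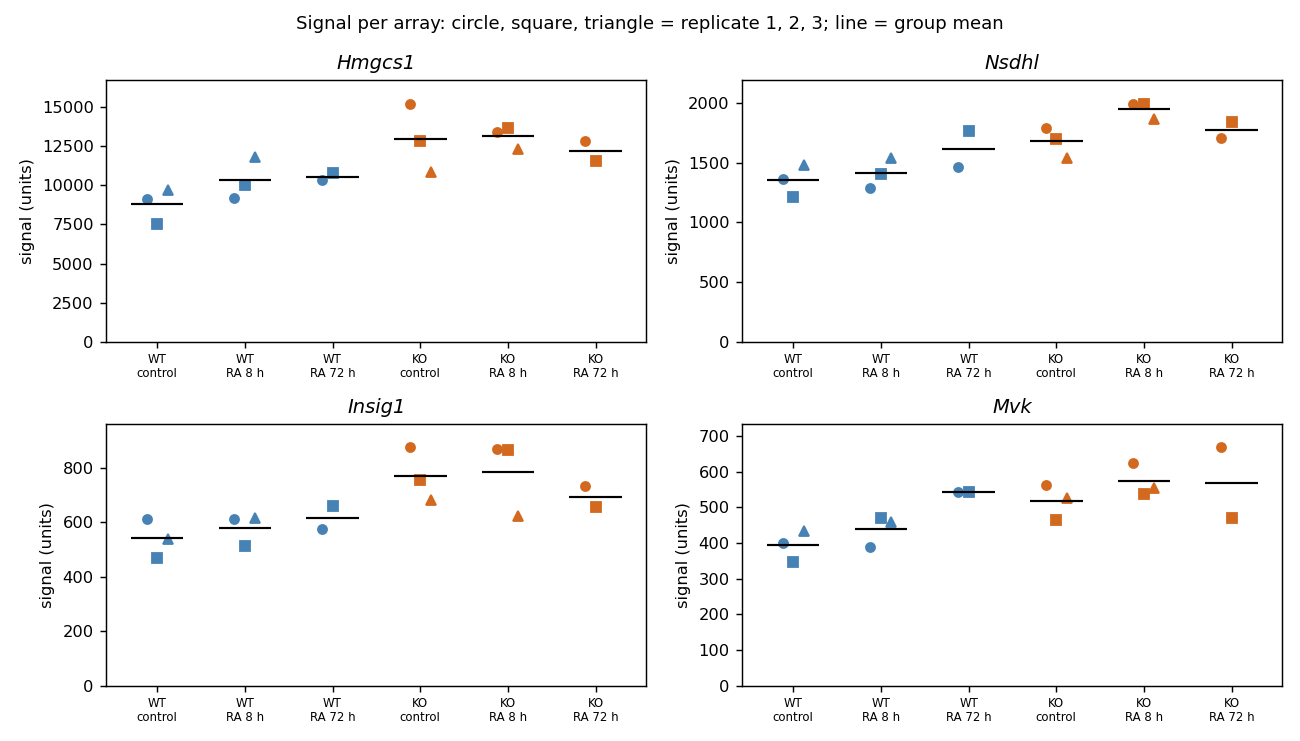
Signal (array units) of Hmgcs1, Nsdhl, Insig1 and Mvk on each of the 16 arrays, by group; circles, squares and triangles are replicates 1, 2 and 3 and the line is the group mean. For Hmgcs1 the knockout controls (10827 to 15223) and the knockout 8 h arrays (12308 to 13663) lie above all wild-type arrays of the same condition.

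After 72 h of RA no member was called between the genotypes by limma, and 0 of 25 had an unadjusted p under 0.05, where 4.07% of all genes were called and 16% had such a p. The sterol median was 0.04. The 2 widest differences were in Mvd (-0.48 ± 0.26, adjusted p = 0.396) and Msmo1 (-0.38 ± 0.20, adjusted p = 0.385), both on chromosome 8, whose median was -0.29 at this time. Hmgcs1 read 10339 and 10765 in wild type and 12853 and 11537 in the knockout (0.21 ± 0.16, adjusted p = 0.599). With 2 arrays per group the median SE over all genes was 0.24, against 0.19 for 3 per group. Whether the genotype difference itself changed with RA was tested directly, and limma called 0 of 25 members at 8 h and at 72 h, with 0 at an unadjusted p under 0.05 in both. Over all genes 0% and 0.342% were called, and 1.85% and 5.66% had an unadjusted p under 0.05. The widest member was Cyp51 at 72 h (-0.66 ± 0.33, adjusted p = 0.946).

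RA for 8 h left no member called in either genotype by limma. In wild type 2 of 25 had an unadjusted p under 0.05 (Ebp and Elovl6) and in the knockout 2 (Acaca and Elovl6), where 0.904% and 0.957% of all genes were called and 7.86% and 8.66% had an unadjusted p under 0.05. Elovl6, the elongase of palmitate, read 3785, 2676 and 4652 in wild-type controls and 5438, 4659 and 6812 after 8 h, with every treated array above every control. The difference was 0.62 ± 0.21 (adjusted p = 0.316). In the knockout it read 4894, 3297 and 4069 in controls and 7360, 4589 and 6167 after 8 h, with overlap (0.56 ± 0.21, adjusted p = 0.388). In the knockout, where the labels number the replicates, a limma fit with replicate number as a block called it (0.56, adjusted p = 0.0257). That fit held all 16 arrays and shared the block over both genotypes, so it also used numbers not taken to pair samples. Acaca, the acetyl-CoA carboxylase, read 1157, 987 and 767 in knockout controls and 1386, 1346 and 1147 after 8 h, with overlap (0.43 ± 0.15, adjusted p = 0.319).

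After 72 h of RA Elovl6 had the largest difference of the 25 members in both genotypes, and 4 members were called in both genotypes with the same sign. The share of all genes called in both was not computed, so that count is no result about the members. In wild type 5 of 25 members were called, all higher, against 24.7% of all genes (16.1% higher, 8.64% lower). In the knockout 5 of 25 were called, 4 higher and 1 lower, against 23% (14.8% higher, 8.26% lower). These shares are close to the background and are no result about the members as a group. Elovl6, Srebf1, Hsd17b7 and Ebp were called higher in both genotypes, Msmo1 in wild type and Idi1, as lower, in the knockout. The 72 h and 8 h comparisons share their control arrays and are set side by side only. With the LIF labels exchanged 6 and 5 members were called, and without both replicate 1 controls 4 and 4; Elovl6, Ebp and Hsd17b7 were called in both genotypes under each. Wild-type 72 h replicate 2 was the array high in Col1a1, Col1a2, Col3a1 and Dcn. Without it the wild-type differences were 1.13 in Elovl6, 0.67 in Srebf1, 0.84 in Hsd17b7, 0.36 in Ebp and 0.48 in Msmo1. The part of those fibroblast genes in the wild-type results was otherwise not tested.

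Elovl6 read 7899 and 6288 in wild type after 72 h, above all controls, a rise of 0.96 ± 0.24 or 1.95-fold (limma adjusted p = 0.00825). In the knockout it read 9100 and 8494, again above all controls, a rise of 1.12 ± 0.24 or 2.18-fold (adjusted p = 0.0033). Its 3 probe sets did not read alike, at 0.96, 0.75 and 0.09 in wild type and 1.12, 0.71 and 0.50 in the knockout. The wild-type call was lost without 72 h replicate 1 (0.80, adjusted p = 0.1) and with the mean over probe sets (0.60, adjusted p = 0.108). The knockout call held in all 18 alternatives, with an adjusted p of at most 0.0431.

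Srebf1 read 1334 and 1134 in wild type and 1296 and 1064 in the knockout after 72 h, above all controls and all 8 h arrays of the same genotype. It rose by 0.56 ± 0.16 (1.47-fold, adjusted p = 0.017) and 0.50 ± 0.16 (1.41-fold, adjusted p = 0.0331) over controls. Against 8 h of RA it rose by 0.65 ± 0.16 (adjusted p = 0.00791) and 0.68 ± 0.16 (adjusted p = 0.00732), the only member of 25 called in wild type and 1 of 2 in the knockout, where 22.3% and 19.2% of all genes were called. The 8 h arrays themselves, at 823, 755 and 778 in wild type and 716, 633 and 873 in the knockout, overlapped the controls. All 4 of these calls were lost without 72 h replicate 1 of the genotype, with adjusted p of 0.17, 0.27, 0.106 and 0.106. The calls against controls were also lost without control 2 in wild type (0.0546), and in the knockout without control 1 (0.0841), control 2 (0.0835) or both replicate 1 controls (0.46, adjusted p = 0.0968). They were lost as well in the fit of these groups alone in wild type (0.0624) and with median centring in the knockout (0.0639).

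None of the enzymes that make palmitate, Acly, Acaca and Fasn, was called after 72 h in the main fit. Acaca read 1205 and 1467 in wild type and 1387 and 1222 in the knockout, above all controls of each genotype, without passing (0.42 ± 0.17, adjusted p = 0.087, and 0.44 ± 0.17, adjusted p = 0.0754). Acaca passed in 3 of 18 alternatives in the knockout and 0 of 18 in wild type. The 3 were the exchanged LIF labels (0.51, adjusted p = 0.0254), without both replicate 1 controls (0.58, adjusted p = 0.0347) and without control 1 (0.58, adjusted p = 0.0287). Fasn had differences of -0.10 ± 0.10 and -0.13 ± 0.10 from controls. Acly, the ATP citrate lyase, read 7252 and 7072 in wild type and 8040 and 7145 in the knockout, below all controls of its genotype, also without passing (-0.22 ± 0.12, adjusted p = 0.206, and -0.28 ± 0.12, adjusted p = 0.118). The fatty acid median of 0.42 and 0.44 covers genes on both sides of 0. It was 0.28 in wild type without 72 h replicate 2 and 0.29 in the knockout without control 3.

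**Figure D4:**
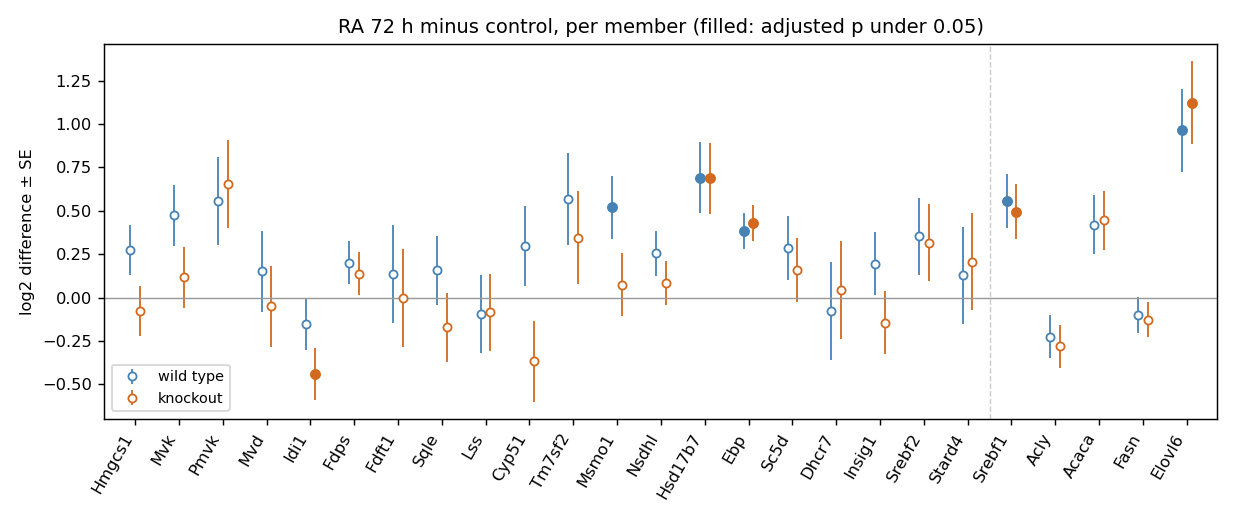
Log2 difference, 72 h of RA minus control, of each member in wild type and knockout (bars ± SE; filled points have an adjusted p under 0.05). Elovl6 is the highest in both (0.96 and 1.12), and Idi1 in the knockout (-0.44) is the only filled point below 0.

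In the sterol pathway 3 enzymes were called higher in wild type after 72 h. Hsd17b7, a keto-reductase of C4 demethylation, read 290, 299 and 242 in wild-type controls and 494 and 401 after 72 h, and 379, 251 and 236 against 431 and 480 in the knockout. The groups did not overlap in either genotype. It rose by 0.69 ± 0.21 in both (1.62-fold, adjusted p = 0.0223, and 1.61-fold, adjusted p = 0.0248). This is read by a probe set whose probes may also match other transcripts. Its 3 dimmer probe sets gave 0.14 to 0.29 in wild type and 0.12 to 0.55 in the knockout, and the calls were lost with quantile normalization (adjusted p = 0.108 and 0.0991), with median centring (0.0573 and 0.0586) and in the fit of these groups alone (0.066 and 0.0782). The mean over probe sets gave 0.33 in wild type (adjusted p = 0.145), also without the call. They were also lost without 72 h replicate 1 (0.196) or control 3 (0.0673) in wild type, and without 72 h replicate 1 (0.077) or 2 (0.163) or control 2 (0.0841) or 3 (0.0896) in the knockout.

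Ebp, the sterol isomerase, read 4690, 4501 and 5056 in wild-type controls and 6097 and 6270 after 72 h. In the knockout it read 4290, 5022 and 4110 against 5661 and 6359. The groups did not overlap, and it rose by 0.38 ± 0.10 (1.3-fold, adjusted p = 0.0134) and 0.43 ± 0.10 (1.35-fold, adjusted p = 0.00736). The wild-type call was lost without 72 h replicate 1 (adjusted p = 0.0675) or 2 (0.101) and with median centring (0.29, adjusted p = 0.0747), and the knockout call without 72 h replicate 2 (0.103).

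Msmo1, the C4 methyl oxidase, read 4510, 4023 and 5513 in wild-type controls and 6493 and 6818 after 72 h, without overlap, a rise of 0.52 ± 0.18 (1.43-fold, adjusted p = 0.0471). In the knockout it read 5466, 5137 and 4105 against 5557 and 4725, with overlap (0.07 ± 0.18, adjusted p = 0.815). The difference between the genotypes' responses was -0.45 ± 0.26 and was not called (adjusted p = 1). The wild-type call was kept in 7 of 18 alternatives. The mean over its 2 probe sets gave 0.0986 (adjusted p = 0.809), and the second probe set reached 100 on 1 array. The call was also lost with median centring (adjusted p = 0.109), a floor of 100 (0.055), no filter on dim genes (0.0808), eBayes without trend (0.0767) and the fit of these groups alone (0.0537). It was lost without both replicate 1 controls (adjusted p = 0.0998) and without wild-type control 1 (0.0996) or 2 (0.141) or 72 h replicate 1 (0.14) or 2 (0.204).

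Idi1 fell in the knockout. It read 4782, 3997 and 3682 in knockout controls, 4535, 4718 and 4009 after 8 h, and 3183 and 2901 after 72 h, below every earlier array. The fall was 0.44 on the log2 scale against controls (-0.44 ± 0.15, adjusted p = 0.0455) and larger against 8 h (-0.54 ± 0.15, adjusted p = 0.0206). In wild type it read 3462, 3283 and 3522 in controls and 2921 and 3246 after 72 h (-0.15 ± 0.15, adjusted p = 0.509). The call against controls was lost without both replicate 1 controls (-0.34, adjusted p = 0.171), with the LIF labels exchanged (-0.40, adjusted p = 0.0557), and without control 1 (0.155) or 2 (0.0781) or 72 h replicate 1 (0.107) or 2 (0.245). It was kept in 7 of 18 alternatives, and lost too with quantile normalization (0.0722), no filter on dim genes (0.0674), the mean over probe sets (0.0803), eBayes without trend (0.0746) and the fit of these groups alone (0.0519). Against 8 h it was lost without 72 h replicate 1 (adjusted p = 0.0691) or 2 (0.158), or 8 h replicate 1 (0.0558) or 2 (0.059).

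Pmvk, the kinase after Mvk, read 837, 1036 and 1056 in knockout controls and 1682 and 1388 after 72 h, without overlap (0.65 ± 0.25, adjusted p = 0.0772). In wild type it read 710, 925 and 1572 against 1243 and 1781, with overlap (0.56 ± 0.25, adjusted p = 0.123). Pmvk passed in 2 of 18 alternatives in each genotype. Mvk read 545 and 543 in wild type after 72 h, above all controls (0.47 ± 0.18, adjusted p = 0.0629). Mvk passed in 2 of 18 alternatives there, among them the exchanged LIF labels (0.50, adjusted p = 0.0474). The median over the 20 sterol members was 0.26 in wild type and 0.08 in the knockout, against 0.06 over all genes in both. In the knockout it turned to -0.09 without 72 h replicate 1. At the same time the summed extraembryonic endoderm markers stood at 31784 to 34266 in wild type and 25545 to 26313 in the knockout, against 5977 to 13494 and 4355 to 7477 in controls. In all 12 and 11 of the 13 tested were called higher, where 16.1% and 14.8% of all genes were. Foxa2 passed the filter on dim genes only through its 72 h arrays, at 312 and 248 in wild type and 130 and 143 in the knockout. It read at most 89.0 on the other arrays, so its place among the 13 rests on the rise being counted. Ttr, Afp, Apoa1 and Apoa2 did not pass the filter and are not in the count. The part of the extraembryonic endoderm markers in the changes of the members was not tested.

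**Figure D5:**
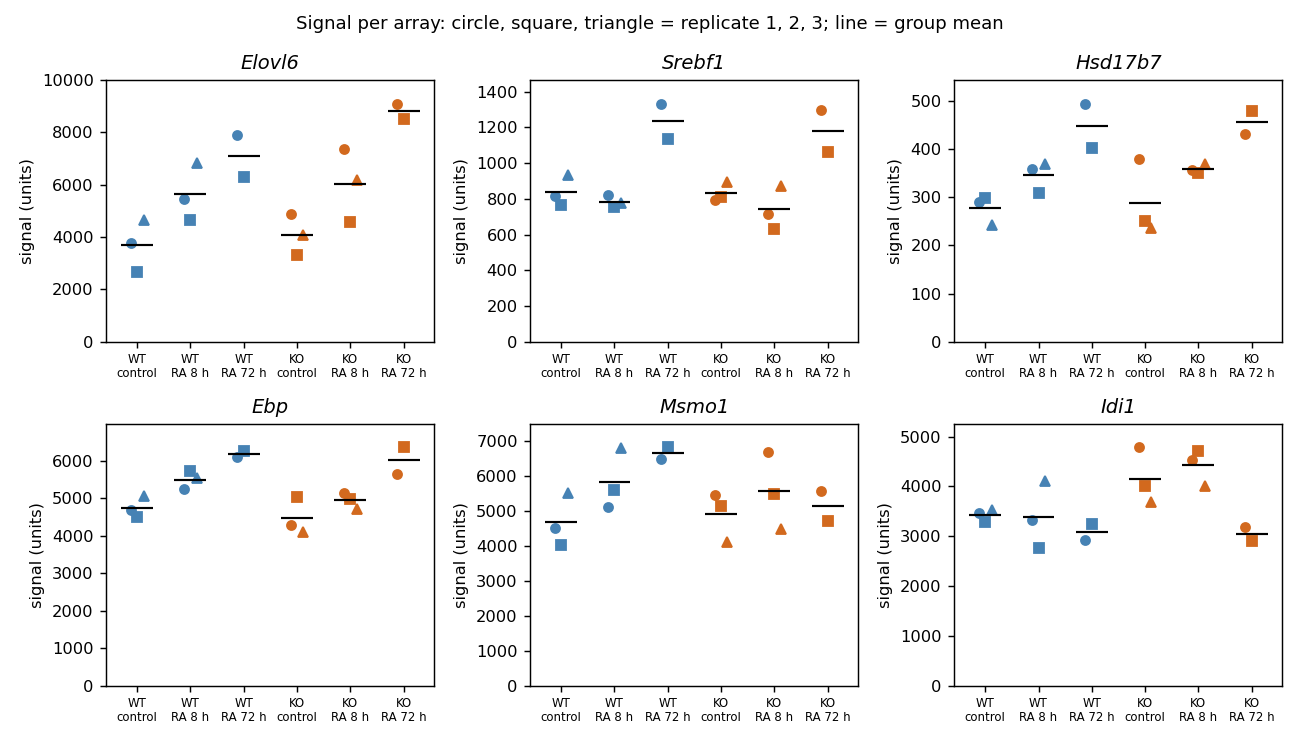
Signal (array units) on each of the 16 arrays of 6 members called after 72 h of RA in at least 1 genotype; circles, squares and triangles are replicates 1, 2 and 3 and the line is the group mean. Elovl6 runs from 2676 to 4652 in wild-type controls up to 6288 and 7899 after 72 h, and Idi1 in the knockout ends at 2901 and 3183.

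The 6 members not yet described were, like several named above, called in none of the comparisons. Over the 16 arrays of the replicated groups, Fdps, which builds farnesyl diphosphate, ran from 6874 to 9413 and had the narrowest range of the members (1.37-fold). Fdft1, the squalene synthase, ran from 2493 to 5919 and differed by 0.46 ± 0.25 between knockout and wild-type controls, with overlap. Lss, which closes squalene into lanosterol, ran from 919 to 2078. Dhcr7, the last reductase, ran from 783 to 2241, with its highest value on knockout 8 h replicate 1. Sc5d, the desaturase before it, ran from 606 to 990, and Stard4, a sterol carrier, from 605 to 1234. Probe sets of 3 of these genes did not read alike. For Sc5d a second probe set gave 0.92 and 0.70 at 72 h against control in wild type and knockout, where the brightest gave 0.29 and 0.16. For Lss the second gave 0.90 and 0.36 against -0.10 and -0.09. For Stard4 the 3 probe sets gave -0.08, -0.57 and 0.39 between the genotypes in controls.

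The rest of the pathway was read from 3 lists of related genes. Of 13 other sterol genes 8 were tested, of 15 other fatty acid genes 15, and of 8 efflux and LXR genes 6. After 72 h of RA the fatty acid list had 4 of 15 called higher and 0 lower in each genotype, where 16.1% and 14.8% of all genes were called higher and 8.64% and 8.26% lower. Elovl1, an elongase of very long chains, rose by 1.05 ± 0.19 in wild type (adjusted p = 0.00114) and 0.78 ± 0.19 in the knockout (0.00906). In the knockout Acacb, the mitochondrial acetyl-CoA carboxylase, rose by 0.99 ± 0.27 (0.0147). Acss2, which makes acetyl-CoA from acetate, rose by 0.95 ± 0.21 (0.00394) and 0.72 ± 0.21 (0.0218), and the acyl-CoA synthetase Acsl3 by 0.78 ± 0.19 (0.00763) and 0.66 ± 0.19 (0.0207). Apoe, the cholesterol-carrying apolipoprotein, changed by -1.73 ± 0.16 in wild type (adjusted p = 2.05e-06) and by -1.81 ± 0.16 in the knockout (1.44e-06), lower in both and the only efflux gene called. Of the sterol list Mbtps1 and Npc1 were called higher in wild type (0.44 ± 0.15 and 0.66 ± 0.23) and Mbtps1 in the knockout (0.59 ± 0.15). After 8 h of RA limma called 0 genes of the 3 lists in either genotype. Between 72 h and 8 h the sterol list had 2 higher in each genotype, the fatty acid list 3 higher in wild type and 2 in the knockout, and the efflux list 1 higher and 1 lower in wild type and 1 lower in the knockout, where 22.3% and 19.2% of all genes were called. At an unadjusted p under 0.05 after 8 h the fatty acid list had 2 higher in each genotype, the efflux list 1 higher and 1 lower in wild type and 1 lower in the knockout, and the sterol list 0 in wild type and 1 lower in the knockout, where 7.86% and 8.66% of all genes had such a p.

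Between the genotypes, in controls and at 8 h, the proteases that release the sterol factors read lower in the knockout while most of the 20 sterol members read higher. The 8 tested genes of the other sterol list, which holds both proteases, did not lean higher. Their median was -0.005 in controls (4 above 0, 4 below) and -0.09 at 8 h (2 above, 6 below). At 72 h the median of the 20 members was 0.04, while both proteases still read lower in the knockout. Mbtps2 then read 813 and 1014 in wild type and 673 and 633 in the knockout, and Mbtps1 5197 and 4885 against 3712 and 4236. None of the 8 genes was called at that time, and any link was not tested. Mbtps2 was called lower without RA (-0.60 ± 0.16, adjusted p = 0.0389), and the 8 h arrays gave the same call (-0.66 ± 0.16, adjusted p = 0.0254). Mbtps1 was called lower in controls (-0.49 ± 0.13, adjusted p = 0.0496), and it lies on chromosome 8 with its median of -0.25. Over all genes 4.64%, 4.61% and 4.07% were called in controls, at 8 h and at 72 h. Of the fatty acid list, Gpam, the first enzyme of glycerolipid synthesis, was called higher in controls, at 8 h and at 72 h (0.53, 0.44 and 0.59), and it lies on chromosome 19 with medians of 0.47 to 0.48. Me1, malic enzyme, was called lower in controls and at 72 h (-0.72 ± 0.14 and -0.77 ± 0.17), Acacb lower in controls (-0.94 ± 0.24), and Tecr, on chromosome 8, lower at 8 h (-0.56 ± 0.13). None of the 6 efflux and LXR genes was called between the genotypes.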

How the data were processed

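RNA of 18 samples was hybridised to 1-colour Affymetrix 3′ arrays. The deposited values are intensity on a linear scale, the authors' MAS5 signal per probe set, per the submitters' processing notes; the MAS5 version is not given in the sources used here. Median signal was 54.4 to 75.6 per array, and the number of arrays limits the precision. Of 45101 probe sets, 34958 had 1 gene symbol in the platform annotation, 932 several and 9211 none listed; 34754 matched RefSeq by identifier and 0 symbols changed.

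Each array was scaled to a trimmed mean of 500 (2% cut at each end), floored at 50 and put on the log2 scale; 41.6% to 48.3% of probe sets were at the floor. The brightest probe set stood for a gene, and genes at 100 or more on at least 2 arrays were tested. The 16 arrays of the 6 replicated groups entered 1 fit (R 4.3.3, limma 3.58.1, lmFit and eBayes with trend, 10 residual degrees of freedom), with Benjamini-Hochberg adjustment over 11388 genes and a threshold of 0.05. The scripts were tested on simulated data. No 2 arrays were identical (0 pairs).

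The members and gene lists were chosen with earlier results of these data known. Named were all members with their levels, the called ones in full, the 2 widest where none was called, and of each other list up to 3 called genes.

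Knockout replicates 2 and 3 are numbered in the labels of the control and 8 h RA groups, which leaves 1 array as the first of each. Deviations from the group means correlated at 0.143, 0.271 and 0.271 over genes in the 3 same-numbered pairs, so the blocked value is given beside Elovl6. The main fit had no block, and the blocked fit shared its replicate effect over all 16 arrays. Alternatives covered the floor, pseudocount, normalization, filter, probe set rule, trend, block, LIF labels, the groups fitted and each replicate left out.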

Additional observations from a re-analysis of the deposited data

Results flagged for a closer look

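The arrays labelled without LIF (1 per genotype) entered no comparison. On them Srebf2, the sterol regulator, read 1055.74 in wild type, where the 3 controls labelled with LIF read 693 to 1028, and 1315.68 in the knockout, where the controls read 1087 to 1279. It was picked out because both arrays lay above all controls of their genotype. Over the 25 members the wild-type array had 3 above, 6 below and 16 within the range of the controls, and the knockout array had 7, 1 and 17. The share over all genes was not computed, so these counts and the place of Srebf2 are no result about the members. With 1 array per genotype the difference was not tested, and Socs3 goes against the LIF labels of replicate 1.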

How the results depend on the processing

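Leaving out 1 array at a time gave 0 to 5 called members at 72 h against control in wild type (5 as reported; 0 without 72 h replicate 1, 3 without control 2 or 72 h replicate 2) and 2 to 4 in the knockout (5 as reported; 2 without 72 h replicate 1, control 2 or 72 h replicate 2). It gave 0 to 1 at 72 h against 8 h in wild type (1 as reported) and 0 to 2 in the knockout (2 as reported; 0 without 72 h replicate 1), 0 to 1 between the genotypes in controls and 0 to 2 at 8 h (1 each as reported; 2 without wild-type replicate 3). With median centring, which shifted 72 h against 8 h in wild type by -0.10 in log2, the counts were 2 and 3 at 72 h against control in wild type and knockout, and 2 and 4 against 8 h. With the mean over probe sets they were 3 at 72 h against control and 2 against 8 h in wild type, and 0 in controls and 2 at 8 h between the genotypes. Quantile normalization gave 3 in the knockout at 72 h. The fit of the compared groups alone gave 2 at 72 h in wild type, and 0 between the genotypes in controls and at 8 h, and eBayes without trend gave 0 in controls. With the LIF labels exchanged the counts were 2 and 4 at 72 h against 8 h, and 2 between the genotypes in controls. Without both replicate 1 control arrays, an alternative chosen after seeing the data, the count in controls was 0, and at 72 h 4 in each genotype. The cause was not tested.

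The replicate block gave 1 called member after 8 h in wild type (Elovl6, 0.62, adjusted p = 0.0134) and 1 in the knockout, 7 at 72 h against control in each genotype, 3 and 7 at 72 h against 8 h, and 2 and 4 between the genotypes in controls and at 8 h. The calls it added between the genotypes were Insig1 in controls (adjusted p = 0.0364) and Sqle (0.0403), Srebf2 (0.0312) and Fasn (0.0492) at 8 h. Outside the knockout at 8 h the numbers were not taken to pair the samples, since numbers 1 and 2 of the wild-type control and 8 h arrays only follow the order of deposit and the 72 h groups give 2 pairs. By their values 33 of 36 same-numbered pairs correlated above 0.1. For all 16 arrays the mean correlation was highest with the arrays of their own number, a hint from the data only.

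Over all alternatives 406 of 418 medians of the lists moved by less than the spread between arrays. A change of floor, filter, trend or groups fitted leaves these medians as they are. Much of that count was therefore fixed in advance, and it is no measure of stability. The sterol median between the genotypes ran from 0.18 to 0.39 in controls and from 0.19 to 0.43 at 8 h. Called members were still called in 200 of 268 cases, and members not called passed in 35 of 654. In the genotype difference of the 8 h response, where neither was called, Dhcr7 (0.28) ran from -0.0391 to 0.53 and Pmvk (-0.25) from -0.57 to 0.0033 with 1 array left out, each turning sign once, without knockout 8 h replicate 1 and without wild-type control 1. Between the genotypes at 72 h, and in both tests of a changed response, 0 members were called throughout.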
